A study of Rattus norvegicus with 48 samples.

Results

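Hmox1, Nqo1, Gclc, Gstp1 and Cat were followed in the liver of male Wistar rats fed either of 2 diets. These 5 genes were chosen by their rat Ensembl identifiers as a set of oxidative stress defence genes, out of 32662 genes in the table of reads per gene, and all 5 were among the 12756 genes that passed the filter on low counts. The rule names them by identifier and sets no condition on their values. The CDAA groups received a choline-deficient diet of free amino acids with 1% cholesterol, used to induce steatohepatitis, with 11% of the energy from protein, 31% from fat and 58% from carbohydrates and with 0.17% methionine. The CSAA groups received its control with added choline, with 12% of the energy from protein, 16% from fat and 72% from carbohydrates and with 0.4% methionine. Choline, methionine, fat and cholesterol thus changed together between the diets and cannot be told apart. Each diet was given for 4, 8 or 12 weeks to 8 animals per group, 48 in all, which were 6 weeks old when obtained, were housed in pairs and carried no genetic change named in the labels. Livers were taken from different animals at each week.

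Cells meet oxidants and reactive chemicals with enzymes that destroy peroxides, enzymes that neutralise reactive molecules and enzymes that supply glutathione, the main small thiol of the cell. Many genes of this defence, Hmox1, Nqo1, Gclc and rat Gstp1 among them, are known to be switched on by the transcription factor NRF2, which binds antioxidant response elements in their regulatory DNA once oxidants release it from its inhibitor KEAP1. Cat, which encodes the peroxisomal enzyme catalase, is abundant in hepatocytes. Gstp1 is scarcely made in normal rat hepatocytes and is the standard marker of preneoplastic foci in rat liver.

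Upstream DNA is given for Gstp1 and Cat, which had the largest rise and the largest fall of the 5 genes on CDAA at week 12. The pair was chosen with these results known. Whether antioxidant response elements in this DNA bear on the diet effects was not tested. The RefSeq promoter windows, 250 bases before to 50 bases after the start of the gene in build GRCr8, were found for 4 of the 5 genes, Nqo1, Gclc, Gstp1 and Cat. They were searched on both strands for TGACNNNGC, the core letters of the antioxidant response element, and for TGANTCA, the AP-1 motif, which can overlap it. Of 33469 rat promoter windows of this length, 12.1% held the first motif and 7.33% the second. The Gstp1 window held 1 match to each, at the same place. The windows of Nqo1, Gclc and Cat held a match to neither, which says only that these letters are not in these windows. Among the genes without a match, Nqo1 was higher on CDAA at weeks 4 and 12 and Cat was lower at weeks 8 and 12. Gclc, also without a match, did not pass the criteria for a changed gene at any week. The 250 bases before the start are given 5′ to 3′ as read on the strand of the gene. Capitals mark the TGACNNNGC match of Gstp1, which began 61 bases before the start and whose first 7 letters, TGACTCA, were the AP-1 match.
Gstp1 (GRCr8, chr1:210769706-210769955, minus strand): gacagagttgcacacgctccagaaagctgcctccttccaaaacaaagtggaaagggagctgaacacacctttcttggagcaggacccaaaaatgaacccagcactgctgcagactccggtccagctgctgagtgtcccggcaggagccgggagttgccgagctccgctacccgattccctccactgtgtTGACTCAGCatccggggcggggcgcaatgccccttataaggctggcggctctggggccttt
Cat (GRCr8, chr3:110329527-110329776, minus strand): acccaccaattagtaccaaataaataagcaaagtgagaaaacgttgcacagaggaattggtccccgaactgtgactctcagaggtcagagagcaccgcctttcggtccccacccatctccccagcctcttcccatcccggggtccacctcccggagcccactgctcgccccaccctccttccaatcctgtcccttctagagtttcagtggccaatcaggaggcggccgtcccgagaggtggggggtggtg

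RNA was read as 85 bp single-end reads, which left 13619274 to 22284359 reads on genes in an animal (median 18614479). Levels of single genes are given as CPM, read counts scaled to the size of the library with TMM factors, which correct for its composition, and RPKM, which is scaled to the length of the gene as well, is used where genes are set against each other. Diet effects are log2 fold changes of CDAA over CSAA from edgeR's quasi-likelihood test with Benjamini-Hochberg adjustment over all 12756 genes, and a gene was counted as changed where the adjusted p was under 0.01 and the log2 fold change reached 1 or -1. The scaling bears on every fold. At week 12 the mean TMM factor was 0.777 ± 0.0441 on CSAA and 1.37 ± 0.0515 on CDAA (SD, n = 8 each). With library size alone, the median log2 fold change of all genes was 0.39, 0.65 and 0.73 at weeks 4, 8 and 12, against -0.019, 0.051 and -0.086 with TMM. Principal components were taken of log2(RPKM + 0.1) of the 12756 genes, which carries no TMM factor. On the first of them (73.3% of the variance), 4 animals lay outside the range of the other animals of their groups, shifted towards the other diet. They were animals 303 (CDAA, week 4), 504 (CSAA, week 8), 908 (CSAA, week 12) and 1102 (CDAA, week 12). In the CDAA group at week 12, animals 1105 to 1108 resembled each other more than other animals did, with a chi-square per gene of 3.51 to 10.2 in their 6 pairs and of at least 11.7 in the other 162 pairs within groups. The tissue label was not checked against marker genes, whose names could not be matched to the identifiers.

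In these livers Cat fell at weeks 8 and 12, Nqo1 rose at weeks 4 and 12 and Gstp1 rose at week 12, while Hmox1 and Gclc did not reach the fold change threshold at any week with TMM scaling. At week 4, 1 of the 5 genes was higher on CDAA (Nqo1) and 0 were lower, where 15.7% of all genes were higher and 4.27% lower. The 0 lower genes at week 4 came from edgeR, where 4 of the 5 genes had an unadjusted p under 0.05 in either direction. DESeq2 also called 0 lower, and limma-voom called 1, Cat. At week 8, 1 of the 5 was lower (Cat) and 0 were higher with edgeR, limma-voom and DESeq2 alike, against 18.1% higher and 12.1% lower of all genes. By unadjusted p under 0.05 alone it was 3 of the 5 in edgeR. Shares of all genes by unadjusted p are not given, so the counts by unadjusted p have no background here. At week 12, 2 of the 5 were higher (Nqo1 and Gstp1) and 1 was lower (Cat), against 19.4% and 11.3% of all genes. Counts of 0 to 2 of 5 genes say little against these shares, so the results below are those of single genes.

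**Figure D1:**
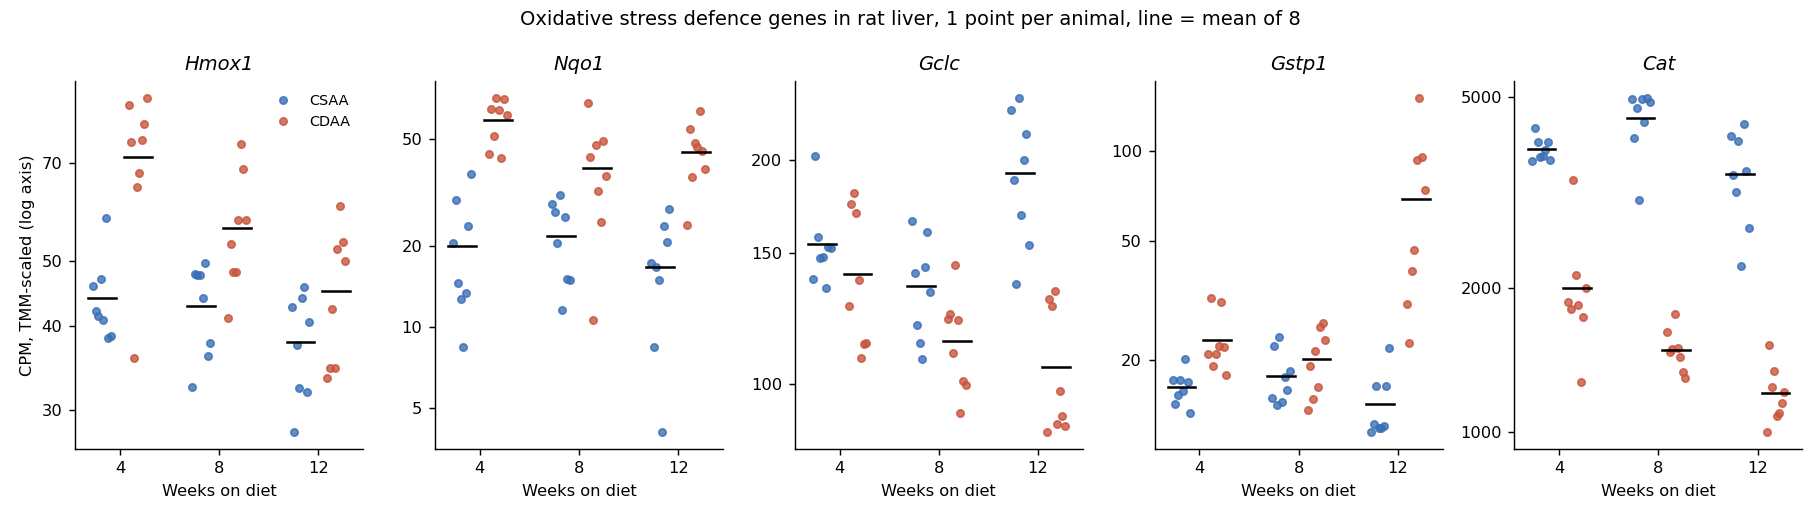
Level of each gene in each animal as TMM-scaled CPM on a log axis, by weeks on diet, with CSAA in blue, CDAA in red and the mean of 8 animals as a line. The CDAA points lie below all CSAA points at each week for Cat, and above all CSAA points at week 12 for Gstp1.

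Catalase breaks hydrogen peroxide down to water and oxygen in peroxisomes, and Cat (ENSRNOG00000008364) was by far the most abundant of the 5 transcripts. On CSAA at week 4 its mean level was 1234 RPKM, the 67th highest of 12756 genes, against 40.8 RPKM for Gclc, 22.7 for Hmox1, 17.1 for Gstp1 and 10.1 for Nqo1. At week 4 Cat lay between 3676 and 4312 CPM on CSAA (median 3814) and between 1272 and 3345 CPM on CDAA (median 1851). At week 8 it lay between 3045 and 4973 CPM on CSAA (median 4804) and between 1299 and 1759.7 CPM on CDAA (median 1479). At week 12 the range was 2224 to 4378 CPM on CSAA (median 3468) and 1001 to 1520.0 CPM on CDAA (median 1179). The diets did not overlap at any week, as all 8 CDAA animals were below all 8 CSAA animals each time. Cat was 1.94-fold lower on CDAA at week 4 (log2 fold change -0.96, SE 0.13, adjusted p = 1.36e-08 with edgeR), just short of the fold change threshold. It was 3.03-fold lower at week 8 (-1.60, SE 0.13, adjusted p = 6.43e-15) and 2.86-fold lower at week 12 (-1.52, SE 0.13, adjusted p = 3.37e-14), and fell by the criteria at both. In whole liver, fewer cells that make a transcript and less of it per cell cannot be told apart. The week 4 value rests partly on animal 303, the CDAA animal on the CSAA side of the first principal component, whose 3345 CPM compares with 2130.1 CPM in the next highest animal, and without it the log2 fold change was -1.11 and passed the threshold.

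The diet effect on Cat was larger at week 8 than at week 4, by a difference of -0.64 in log2 fold change (SE 0.18, adjusted p = 0.00456 for the diet by week interaction with edgeR), and differed by 0.084 from week 8 to week 12 (SE 0.18, adjusted p = 0.759). Neither is past the fold change criterion. Within CDAA, Cat was lower by a log2 fold change of -0.43 at week 8 than at week 4 (adjusted p = 0.00435) and of -0.73 at week 12 than at week 4 (SE 0.13, adjusted p = 3.44e-06). On CSAA the largest of its 3 differences between weeks was -0.39 from week 8 to week 12 (SE 0.13, adjusted p = 0.0113). By mean level the groups ran from CSAA at week 8 (4505 CPM) over CSAA at week 4 (3887 CPM) and week 12 (3444 CPM) to CDAA at week 4 (1999 CPM), week 8 (1487 CPM) and week 12 (1205 CPM). The ranges of neighbours in this order overlapped, CSAA at week 12 and CDAA at week 4 among them through animal 303. With library size in place of TMM the log2 fold changes were -0.58, -0.98 and -0.71 at weeks 4, 8 and 12, none past the threshold, although the direction held. The difference between weeks 4 and 8 was then -0.40 (adjusted p = 0.0259), and within CDAA the differences from week 4 were -0.13 at week 8 (adjusted p = 0.276) and -0.35 at week 12 (adjusted p = 0.00247).

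NAD(P)H quinone dehydrogenase 1, the product of Nqo1 (ENSRNOG00000012772), reduces quinones to forms that do not feed oxygen radicals, and its gene is a textbook NRF2 target. At week 4 Nqo1 lay between 8.42 and 36.999 CPM on CSAA (median 17.5) and between 42.4 and 71.1 CPM on CDAA (median 62.6), with no overlap. At week 8 the ranges were 11.6 to 31.0 CPM on CSAA (median 23.1) and 10.7 to 67.97 CPM on CDAA (median 39.5), and 6 of 8 CDAA animals were above all CSAA animals. At week 12 they were 4.08 to 27.5 CPM on CSAA (median 16.98) and 24.03 to 63.3 CPM on CDAA (median 45.8), with 7 of 8 CDAA animals above all CSAA animals. Nqo1 rose 2.95-fold on CDAA at week 4 (log2 fold change 1.56, SE 0.29, adjusted p = 8.5e-06 with edgeR) and 2.66-fold at week 12 (1.41, SE 0.29, adjusted p = 2.51e-05). At week 8 it was 1.78-fold higher (0.83, SE 0.28, adjusted p = 0.00803), which passed on p and not on fold. The 3 weeks were not shown to differ, with interaction differences of -0.73 from week 4 to 8 (SE 0.40, adjusted p = 0.164), 0.58 from week 8 to 12 (SE 0.40, adjusted p = 0.279) and -0.15 from week 4 to 12 (SE 0.40, adjusted p = 0.806). With library size alone the effect also passed the threshold at week 8, at 1.41.

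Nqo1 was the most variable of the 5 genes between animals of the same diet and week. Its SD within groups was 0.64 on the log2 scale, percentile 91.6 of all genes, against 0.47 for Gstp1 (percentile 81.3), 0.29 for Hmox1, 0.25 for Gclc and 0.25 for Cat, and 0.26 as the median of all genes. Within their groups, animal 703 of CDAA at week 8 had 10.7 CPM from 263 reads where the next animal had 24.6 CPM, and animal 905 of CSAA at week 12, the lowest of all 48, had 4.08 CPM from 56 reads where the next had 8.48 CPM. Neither animal was among those that stood apart on the first principal component. By mean level the groups ran from CDAA at week 4 (58.6 CPM), week 12 (44.6 CPM) and week 8 (38.8 CPM) to CSAA at week 8 (21.8 CPM), week 4 (20.01 CPM) and week 12 (16.7 CPM), and all neighbours in this order overlapped.

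Gstp1 (ENSRNOG00000018237) encodes the pi class glutathione S-transferase, which couples glutathione to reactive electrophiles. Its mean levels lay between 14.2 and 23.3 CPM in all groups but CDAA at week 12. At week 4 it lay between 13.3 and 20.1 CPM on CSAA (median 16.3) and between 17.9 and 32.2 CPM on CDAA (median 21.5), with 6 of 8 CDAA animals above all CSAA animals. At week 8 the ranges were 14.1 to 23.95 CPM on CSAA (median 16.7) and 13.6 to 26.6 CPM on CDAA (median 20.2), which overlapped widely. At week 12 Gstp1 lay between 11.5 and 21.9 CPM on CSAA (median 12.1) and between 22.7 and 151 CPM on CDAA (median 60.6), and the diets no longer overlapped. The highest CSAA value at week 12 came from animal 908 and the lowest CDAA value from animal 1102, both among the animals shifted towards the other diet on the first principal component. The log2 fold change was 0.52 at week 4 (SE 0.23, adjusted p = 0.0436 with edgeR) and 0.18 at week 8 (SE 0.23, adjusted p = 0.474), neither past the threshold. At week 12 Gstp1 rose 4.86-fold (log2 fold change 2.28, SE 0.24, adjusted p = 9.09e-12). With library size alone the log2 fold changes were 0.94 (adjusted p = 0.000898), 0.77 (adjusted p = 0.00423) and 3.10 (adjusted p = 2.6e-14) at weeks 4, 8 and 12. With the gene length trend of each animal removed, the week 8 value was 0.92 (adjusted p = 0.000403), short of the threshold on fold alone.

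This late rise was a difference between weeks by its own test. The diet effect at week 12 exceeded that at week 8 by 2.10 in log2 fold change (SE 0.33, adjusted p = 2.73e-06) and that at week 4 by 1.76 (SE 0.33, adjusted p = 4.22e-05), both past the criteria. Of the 5 genes, Gstp1 alone passed both criteria in these 2 interaction contrasts with edgeR, limma-voom and DESeq2, against 4.01% and 5.04% of all genes. Between weeks 4 and 8, 0 of the 5 genes passed with edgeR, limma-voom or DESeq2, against 4.25% of all genes by both criteria. In edgeR 1 of the 5 had an unadjusted p under 0.05, a count without a background here. Within CDAA, Gstp1 rose from week 8 to week 12 by a log2 fold change of 1.79 (SE 0.23, adjusted p = 1.72e-06) and from week 4 to week 12 by 1.57 (SE 0.23, adjusted p = 1.18e-07). On per-length values it moved from 17.1 RPKM on CSAA at week 4, below Gclc and Hmox1, to 124 RPKM on CDAA at week 12, above both, and from the 2879th to the 537th place among 12756 genes. Mean levels ran from CDAA at week 12 (69.3 CPM) to CDAA at week 4 (23.3 CPM) and week 8 (20.1 CPM), and then to CSAA at week 8 (17.7 CPM), week 4 (16.2 CPM) and week 12 (14.2 CPM), with overlap between all neighbours. RefSeq lists the near relative Gstp3 and 4 pseudogenes of the Gstp family in the rat. The deposited RPKM are labelled as unique, so reads that fit Gstp1 and a copy alike may be missing. What this does to the Gstp1 counts was not tested.

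The size of the Gstp1 rise was uneven between animals. The CDAA animals 1101 to 1108 at week 12 had 30.7, 22.7, 39.7, 46.8, 93.1, 151, 95.6 and 74.4 CPM. The 4 animals whose libraries were more alike than any others, 1105 to 1108, thus held the 4 highest values (74.4 to 151 CPM), above the other 4 (22.7 to 46.8 CPM), and the share of this likeness in the result was not tested. The same animals also held the 4 highest Hmox1 values of their group, 50.0 to 60.5 CPM against 33.6 to 42.5 CPM, whereas their ranges of Nqo1, Gclc and Cat overlapped those of animals 1101 to 1104. For Gclc the overlap came from animal 1101 alone (86.1 CPM). Animals 1105 to 1108 had 87.8 to 97.7 CPM of Gclc, and animals 1102, 1103 and 1104 had 130, 127 and 133 CPM. Without animals 1105 to 1108, a choice made after their values were seen, the week 12 log2 fold change of Gstp1 was 1.30 (SE 0.18, adjusted p = 7.03e-08) and still passed. The excess over week 8 was then 1.11 (adjusted p = 0.000848) and passed, and that over week 4 was 0.77 (adjusted p = 0.0176) and did not. Within CDAA the differences were then 0.80 from week 8 (adjusted p = 0.0269) and 0.58 from week 4 (adjusted p = 0.00756), neither past both criteria.

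**Figure D2:**
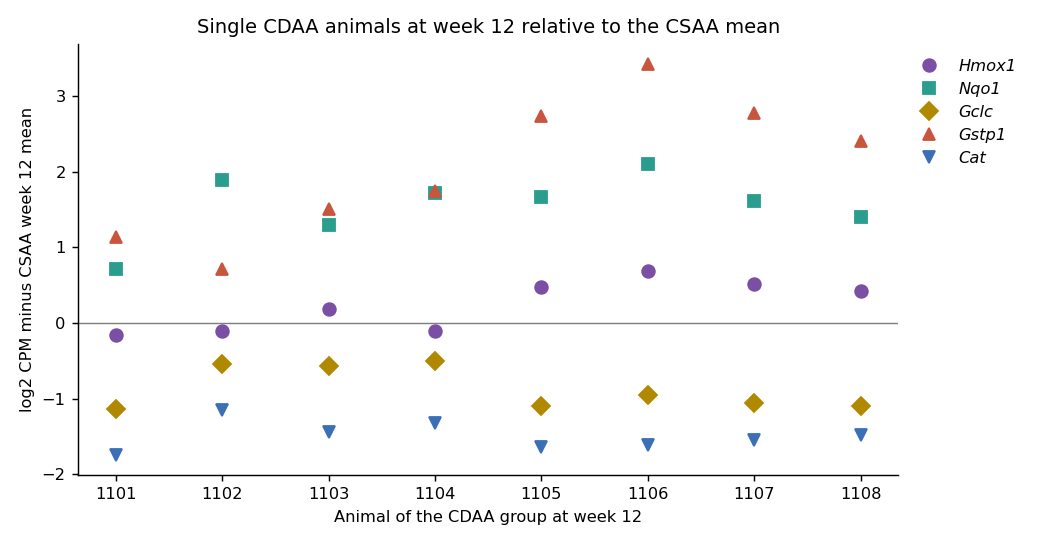
Level of the 5 genes in each of the 8 CDAA animals at week 12, as log2 CPM minus the mean log2 CPM of the CSAA animals at week 12 (grey line at 0). Gstp1 (triangles) ranges from 0.71 in animal 1102 to 3.43 in animal 1106, and animals 1105 to 1108 lie highest for Gstp1 and Hmox1.

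Haem oxygenase 1, encoded by Hmox1 (ENSRNOG00000014117), opens the haem ring to biliverdin, iron and carbon monoxide, and is made in macrophages as well as in stressed hepatocytes. At week 4 Hmox1 lay between 38.4 and 58.0 CPM on CSAA (median 41.8) and between 35.9 and 87.6 CPM on CDAA (median 75.5). Of the CDAA animals, 7 were above all CSAA animals, and animal 303 was below all of them. At week 8 the ranges were 32.5 to 49.8 CPM on CSAA (median 45.9) and 41.1 to 74.6 CPM on CDAA (median 55.3), and at week 12 they were 27.9 to 45.8 CPM on CSAA (median 39.1) and 33.6 to 60.5 CPM on CDAA (median 46.2). The diets overlapped at each week, with 5 of 8 CDAA animals above all CSAA animals at week 8 and 4 of 8 at week 12. The log2 fold change was 0.70 at week 4 (SE 0.14, adjusted p = 2.79e-05 with edgeR), 0.39 at week 8 (SE 0.14, adjusted p = 0.0117) and 0.25 at week 12 (SE 0.14, adjusted p = 0.0935).

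The effect on Hmox1 was smaller at each later week, but the difference between weeks 4 and 12 was -0.44 (SE 0.20, adjusted p = 0.075) and did not pass. Within CDAA, Hmox1 was lower at week 12 than at week 4 by a log2 fold change of -0.66 (SE 0.14, adjusted p = 6.6e-05), which was -0.33 with library size alone (adjusted p = 0.0707). Mean levels ran from CDAA at week 4 (71.5 CPM), week 8 (56.1 CPM) and week 12 (45.2 CPM) to CSAA at week 4 (44.1 CPM), week 8 (42.9 CPM) and week 12 (37.9 CPM), with overlap between all neighbours. The calls of Hmox1 depended on the scaling. With library size alone its log2 fold changes were 1.13, 0.99 and 1.07 at weeks 4, 8 and 12, past both criteria at weeks 4 and 12. The week 12 value also rested on animals 1105 to 1108, without which it was -0.060 (SE 0.16, adjusted p = 0.749). Weeks 4 and 12 then differed by -0.76 in diet effect (edgeR interaction test, adjusted p = 0.00712), short of the fold change criterion. Leaving these animals out was chosen after their values were seen. They held the highest Hmox1 values of their group, so leaving them out had to lower the week 12 effect. The p without them is therefore no support for a difference between weeks.

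Gclc (ENSRNOG00000006302) encodes the catalytic subunit of glutamate cysteine ligase, the rate-limiting enzyme of glutathione synthesis. At week 4 it lay between 135 and 202 CPM on CSAA (median 150.3) and between 108 and 180.3 CPM on CDAA (median 133), and at week 8 between 108 and 166 CPM on CSAA (median 137) and between 91.2 and 144 CPM on CDAA (median 116). The diets overlapped at both weeks. At week 12 Gclc lay between 136 and 243 CPM on CSAA (median 194) and between 86.1 and 133 CPM on CDAA (median 94.1), so that all 8 CDAA animals were below all CSAA animals. The log2 fold change was -0.13 at week 4 (SE 0.12, adjusted p = 0.351 with edgeR) and -0.25 at week 8 (SE 0.12, adjusted p = 0.0714). At week 12 Gclc was 1.83-fold lower on CDAA (-0.87, SE 0.13, adjusted p = 3.43e-08), past the threshold on p and not on fold. These directions turned with library size alone at weeks 4 and 8 (0.26 and 0.36) and came to -0.059 at week 12, each still below the median of all genes under that scaling.

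The diet effect on Gclc at week 12 was below that at week 8 by -0.63 (SE 0.18, adjusted p = 0.00508) and below that at week 4 by -0.74 (SE 0.18, adjusted p = 0.00103). Neither difference reached the fold change criterion, and with library size alone they were -0.42 (adjusted p = 0.0422) and -0.32 (adjusted p = 0.103). On CSAA, Gclc was higher at week 12 than at week 8 by a log2 fold change of 0.51 (SE 0.13, adjusted p = 0.000947), and on CDAA it was lower at week 12 than at week 4 by -0.42 (SE 0.12, adjusted p = 0.00364). The CDAA difference was -0.055 with library size alone (adjusted p = 0.689) and -0.24 without animals 1105 to 1108 (adjusted p = 0.196). Without these 4 animals the interaction differences were -0.44 (adjusted p = 0.104) and -0.56 (adjusted p = 0.0349). Mean levels ran from CSAA at week 12 (192 CPM) and week 4 (154 CPM) over CDAA at week 4 (141 CPM) and CSAA at week 8 (135 CPM) to CDAA at week 8 (114 CPM) and week 12 (105 CPM), with overlap between all neighbours.

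**Figure D3:**
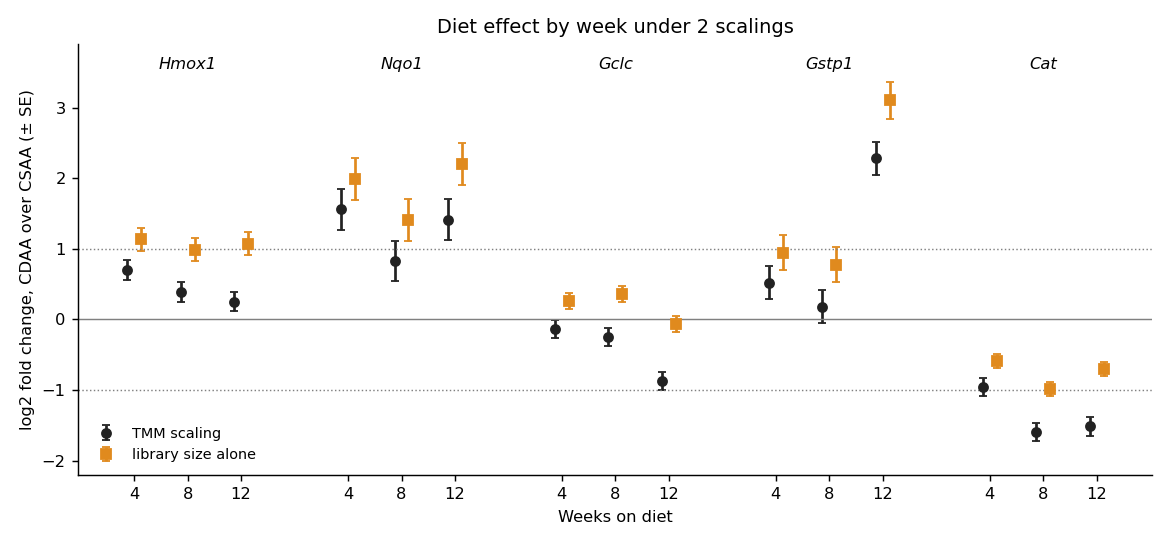
Log2 fold change of CDAA over CSAA at 4, 8 and 12 weeks with its SE from edgeR, with TMM scaling (black circles) and with library size alone (orange squares), and dotted lines at the fold change threshold. Library size alone places every effect higher, which turns the sign of Gclc at weeks 4 and 8, while Nqo1 and Gstp1 stay above 0 and Cat stays below 0.

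Changes between weeks were also tested within each diet. On CSAA, 0 of the 5 genes passed both criteria in any of the 3 contrasts with edgeR, limma-voom or DESeq2, against 0.0470% of all genes from week 4 to 8, 2.78% from week 8 to 12 and 2.68% from week 4 to 12. In edgeR 0, 2 and 1 of the 5 had an unadjusted p under 0.05 in these contrasts. On CDAA, 0 of the 5 passed from week 4 to 8 with edgeR, limma-voom or DESeq2, 4 having an unadjusted p under 0.05 in edgeR, and 1, Gstp1, passed from week 8 to 12 and from week 4 to 12. In these later contrasts 3 and 4 of the 5 had an unadjusted p under 0.05, and from week 4 to 12 all 4 of them (Hmox1, Gclc, Gstp1 and Cat) had an adjusted p under 0.01. By both criteria, where the counts of the 5 genes were 0, 1 and 1, the shares of all genes were 5.02%, 1.43% and 10.6%. Shares of all genes by p alone are not given, so the counts by p alone have no background here.

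Whether the genes varied together between animals was examined on deviations of log2 CPM from the mean of each diet and week group, over 10 pairs of genes and 48 animals, with two-sided permutation tests within groups and Benjamini-Hochberg adjustment over the 10 pairs. Gclc and Cat, both lower on CDAA at week 12, were also high and low in the same animals within groups (Pearson's r = 0.64, permutation p = 1e-05, adjusted p = 0.0001, Spearman's rho = 0.68, permutation p = 1e-05). This raw p is the smallest the permutations can give. The r was 0.66 without the 2 animals farthest from the Gclc median, and 0.57 in CSAA animals alone (adjusted p = 0.122). Hmox1 ran with Gstp1 (r = 0.55, permutation p = 0.00029, adjusted p = 0.00113, rho = 0.50, permutation p = 0.0018) and against Gclc (r = -0.54, permutation p = 0.00034, adjusted p = 0.00113, rho = -0.54, permutation p = 0.00031). Without the 2 farthest animals these r were 0.57 and -0.50. In CSAA animals alone they were 0.27 (adjusted p = 0.371) and -0.39 (adjusted p = 0.218), and with library size alone the r of Hmox1 and Gclc was -0.34 (adjusted p = 0.0527). Animals 1105 to 1108, whose libraries were alike, held the highest values of both Hmox1 and Gstp1 in their group. The permutations counted them as separate animals.

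Hmox1 also ran against Cat (r = -0.50, permutation p = 0.00294, adjusted p = 0.00588, rho = -0.46, permutation p = 0.0025). The r was weaker without animals 303 and 701 (-0.33), and was -0.23 and did not pass without the 4 animals that stood apart (adjusted p = 0.201). Gstp1 ran against Cat (r = -0.41, permutation p = 0.00122, adjusted p = 0.00305, rho = -0.55, permutation p = 0.00026, r = -0.38 without the 2 farthest animals) and against Gclc (r = -0.37, permutation p = 0.0208, adjusted p = 0.0347, rho = -0.38, permutation p = 0.0146, r = -0.36 without the 2 farthest animals). Without the 4 animals that stood apart these were -0.26 (adjusted p = 0.104) and -0.23 (adjusted p = 0.208). In all 48 animals Nqo1 showed no relation past an adjusted p of 0.05 to any of the other 4 genes, with r between 0.027 and 0.24 (permutation p = 0.846 and 0.111). Without the 4 animals that stood apart, Nqo1 and Cat gave r = 0.42 (permutation test, adjusted p = 0.0348), against 0.18 in all 48. All values of an animal share its library and its TMM factor.

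**Figure D4:**
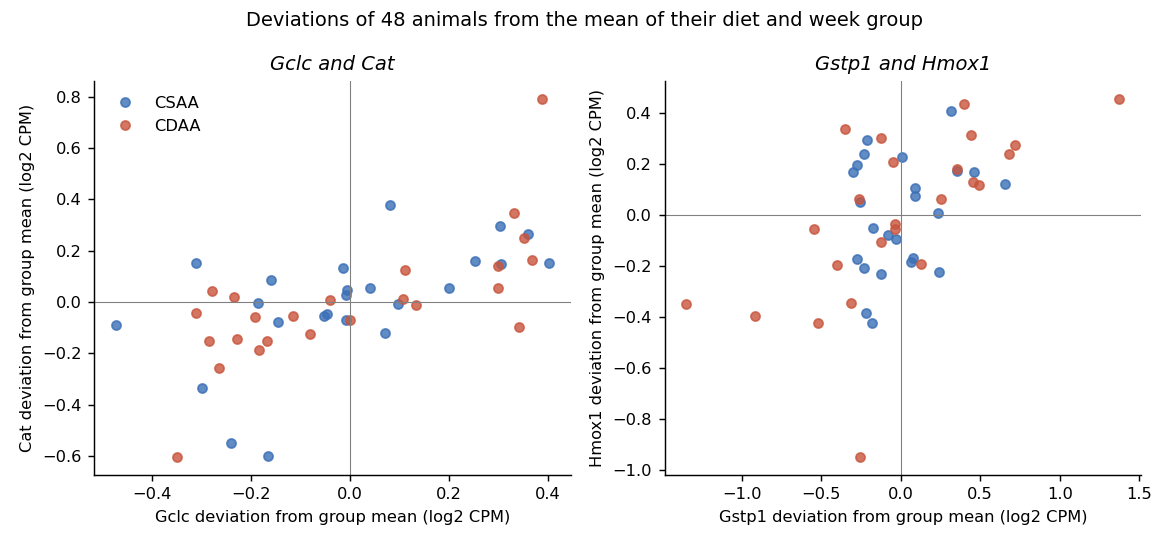
Deviation of each of the 48 animals from the mean log2 CPM of its diet and week group, for Gclc against Cat (left) and Gstp1 against Hmox1 (right), CSAA in blue and CDAA in red. Both clouds rise from lower left to upper right, with Pearson's r of 0.64 and 0.55, and the single low Hmox1 point is animal 303.

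Genes with the pattern nearest to each of the 5 over the 48 animals were found by the root mean square difference of log2 CPM, each gene centred on its own mean, and are known here by identifier alone. For Cat the nearest was ENSRNOG00000012508, with a root mean square difference of 0.20 where the median gene had 0.82, and a log2 fold change of -1.16 on CDAA at week 12. For Gclc it was ENSRNOG00000008922, with 0.20 against 0.53 and a log2 fold change of -0.88. By this measure, which grows with a gene's own spread, Nqo1 and Gstp1 had no gene as near. Their nearest were ENSRNOG00000003674, with 0.56 against 1.03 and a log2 fold change of 1.00, and ENSRNOG00000015310, with 0.49 against 0.91 and a log2 fold change of 0.98. The 3 genes nearest to Hmox1 began at 0.27 against 0.61. The SD of log2 CPM over all 48 animals was 0.94 for Nqo1, 0.81 for Gstp1, 0.77 for Cat, 0.41 for Hmox1 and 0.37 for Gclc.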

How the data were processed

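Liver RNA of 48 rats was analysed, with diet, week and animal from the sample labels. The authors aligned 85 bp reads with STAR to the Rnor_6.0 genome, using the Ensembl annotation, counted them by gene with featureCounts and deposited these counts unnormalized, 1 column per animal. The kit marks strand, but whether the counting used it is not given in the sources used here. The RPKM values were also deposited by the authors, with 3 decimals, scaled to gene length and reads.

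Genes that reached 1 CPM in 5 or more animals of a group entered the quasi-likelihood test of edgeR 4.0.16 (R 4.3.3), with TMM scaling and the 6 diet and week groups as coefficients of a single fit. limma-voom (limma 3.58.1), the method of the study, DESeq2 1.42.0, other scalings, no filter, a gene length correction, log2(RPKM + 0.1) with limma, each week alone and leaving out animals were alternatives. CPM levels on the log2 scale used a prior count of 2. Correlations used 100000 permutations (scipy 1.17.1). The tests were tested on simulated counts. Reads of the 5 genes in an animal ran from 56 for Nqo1 to 85200 for Cat. How much of the spread within groups is counting error was not tested. No batch is named in the labels, and animals that shared a cage were counted as separate replicates.

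All 5 genes were named, with the 3 genes nearest to each in pattern, of which 4 identifiers are printed. The identifiers of the table could not be paired with names, so 179 genes of the oxidative stress pathways and liver cell types, listed by symbol, were not analysed here. The genes and lists were chosen with earlier results of these data known.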

Additional observations from a re-analysis of the deposited data

Results flagged for a closer look

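Among 30 groups of 8 animals, 6 held a single animal whose gap to its nearest neighbour exceeded the 95% critical value of Dixon's test, where chance gives about 1.5. At CDAA week 4, animal 303 had the lowest Hmox1 (35.9 CPM, next 64.4) and the highest Cat (3345 CPM, next 2130.1). At CSAA week 8, animal 504 had the lowest Cat (3045 CPM, next 4097), and at CSAA week 12, animal 908 had the highest Gstp1 (21.9 CPM, next 16.4). These 3 animals also stood apart from their groups over all genes, each shifted towards the other diet. At CSAA week 4, animal 106 had the highest Hmox1 (58.0 CPM, next 47.0) and animal 102 the highest Gclc (202 CPM, next 158).

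The diet effect differed between weeks at an adjusted p under 0.01 in the interaction test of edgeR in 5 cases. The share of all genes at this cut alone is not given, so this count has no background here. By both criteria 0 of the 5 genes passed between weeks 4 and 8, against 4.25% of all genes. Gstp1 alone passed from week 8 to 12 and from week 4 to 12, against 4.01% and 5.04%. For Gstp1 the difference was 2.10 from week 8 to 12 (adjusted p = 2.73e-06) and 1.76 from week 4 to 12 (adjusted p = 4.22e-05). For Gclc it was -0.63 from week 8 to 12 (adjusted p = 0.00508) and -0.74 from week 4 to 12 (adjusted p = 0.00103), and for Cat -0.64 from week 4 to 8 (adjusted p = 0.00456). The differences of Gclc and Cat did not reach the fold change criterion. With library size alone that of Cat was -0.40 (adjusted p = 0.0259) and those of Gclc were -0.42 (adjusted p = 0.0422) and -0.32 (adjusted p = 0.103), and without animals 1105 to 1108 those of Gclc were -0.44 (adjusted p = 0.104) and -0.56 (adjusted p = 0.0349).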

How the results depend on the processing

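Over all alternatives but the leaving out of single animals, 486 values kept their direction and their side of the threshold, 20 no longer passed, 11 newly passed and 18 turned direction. DESeq2, RLE size factors, no filter on low counts and the animals of each week alone changed no call of the 5 genes. The cause of the other changes was not tested.

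With library size alone, Cat no longer passed at week 8 (-0.98) and week 12 (-0.71), Hmox1 passed at week 4 (1.13) and week 12 (1.07) and Nqo1 at week 8 (1.41). Under it these turned direction, none past the criteria: Gclc at week 4 (0.26) and week 8 (0.36), Gclc between weeks 4 and 8 (interaction 0.10), Gstp1 from week 4 to 8 on CDAA (0.036), Hmox1 from week 4 to 8 on CSAA (0.037), Hmox1 between weeks 8 and 12 (interaction 0.086) and Nqo1 between weeks 4 and 12 (interaction 0.21). The correlation of Hmox1 with Gclc was then -0.34 and that of Gclc with Gstp1 -0.26, neither past the threshold. RPKM, which is scaled to library size, gave Cat -0.98 and -0.68 at weeks 8 and 12, Gclc 0.25 and 0.36 at weeks 4 and 8, Hmox1 1.07 and 1.05 at weeks 4 and 12, and Nqo1 1.35 at week 8. The share of changed genes that were higher on CDAA was 78.6%, 59.9% and 63.2% at weeks 4, 8 and 12 with TMM and 92.3%, 88.7% and 94.0% with library size alone.

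Cat at week 4 passed with limma-voom (-1.003), with the gene length correction (-1.04) and without animals 303, 504, 908 and 1102 (-1.09). The length correction also brought Nqo1 past the threshold at week 8 (1.03) and turned Gstp1 in 4 contrasts that did not pass, from week 4 to 8 on CDAA (0.25), from week 4 to 12 and from week 8 to 12 on CSAA (0.17 and 0.069) and between weeks 4 and 8 (interaction 0.16). Without animals 303, 504, 908 and 1102 the correlations were -0.010 for Hmox1 and Nqo1, -0.23 for Hmox1 and Cat, -0.23 for Gclc and Gstp1 and -0.26 for Gstp1 and Cat, none past the threshold, and 0.42 for Nqo1 and Cat, which passed. In CSAA animals alone no pair passed, with -0.011 for Hmox1 and Nqo1, -0.39 for Hmox1 and Gclc, 0.27 for Hmox1 and Gstp1, -0.27 for Hmox1 and Cat, -0.44 for Gclc and Gstp1, 0.57 for Gclc and Cat and -0.53 for Gstp1 and Cat. In CDAA animals alone Gclc and Gstp1 gave -0.36 and did not pass. Without animals 1105 to 1108, an alternative chosen after seeing the data, Hmox1 at week 12 was -0.060, Gclc from week 8 to 12 on CDAA 0.061, and the correlations of Hmox1 with Nqo1 and of Gclc with Gstp1 were -0.031 and -0.26. Gstp1 was then below the threshold between weeks 4 and 12 (interaction 0.77) and within CDAA from week 4 (0.58) and week 8 (0.80).

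Leaving out 1 animal at a time changed no call in 239 values and 1 call, Cat at week 4, which passed without animal 303. Its values ranged from -1.11 to -0.89, and over all such fits Gstp1 at week 12 ranged from 2.01 to 2.41. No paired analysis was possible because the groups share no replicate numbers. The counts of changed genes in the pathway and marker lists were not run, since the table pairs no identifier with a name.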
